A study of Rattus norvegicus with 16 samples.

Results

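The miR-181 family on the rat miRNA array comprised 4 miRNAs, rno-miR-181a, rno-miR-181b, rno-miR-181c and rno-miR-181d (rno stands for rat and is left out below), chosen by name from the 677 miRNAs with probes. They were followed in newborn hearts of HHR, the Hypertrophic Heart Rat, and NHR, the Normal Heart Rat. The 8 HHR pups (4 females, 4 males) came from a strain whose heart enlargement is polygenic. The 8 NHR pups (4 females, 4 males) came from the strain with normal-sized hearts. All pups were 2 days old and received no drug other than the pentobarbitone overdose that ended their lives. RNA of each animal went onto 1 one-colour array without pooling, so replicates are separate animals. In one place the labels name the entire heart and in another the ventricles freed of the atria. The strains are a comparison of 2 genetic backgrounds, not of 1 altered gene.

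MicroRNAs are short RNAs that bind messenger RNAs mainly through their seed, a stretch near the 5′ end, and lower the stability or translation of those transcripts. miR-181a and miR-181b are best known from lymphocyte development, and miR-181b also acts in endothelium. In rat heart cells, miR-181c has been described inside mitochondria, where it acts on the transcript of a cytochrome c oxidase subunit encoded by the mitochondrial genome. Each hairpin can give a main arm, here the 5′ arm, and an opposite arm that the array names with an asterisk.

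The mature sequences show which members are nearest to each other, and are given 5′ to 3′ from RefSeq (rat assembly GRCr8). The capitals mark the seed, bases 2 to 8. All 4 members matched an entry by name.
miR-181a-5p: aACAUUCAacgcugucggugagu
miR-181b-5p: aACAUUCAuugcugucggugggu
miR-181c-5p: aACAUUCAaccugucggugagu
miR-181d-5p: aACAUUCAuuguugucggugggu

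The seed ACAUUCA was shared by all 4 members and by no other of the 693 rat mature names in the RefSeq table (4 of 693). Outside the seed the family fell into 2 kinds of 3′ part. miR-181b and miR-181d differed by 1 base, C12U, counted from 1 at the 5′ end with the base of miR-181b first. miR-181a and miR-181c differed by 1 deleted base, which leaves miR-181c with 22 bases against 23 in the others. miR-181a and miR-181b were 3 substitutions apart, A9U, C10U and A21G with the base of miR-181a first. miR-181c and miR-181d, which come from the same locus, were 5 edits apart. How far each probe also bound the other members was not tested.

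The 6 hairpins lay at 3 loci in GRCr8, each with 1 pair of neighbours. Mir181a-1 (chr13:52037067-52037166) and Mir181b1 (chr13:52037228-52037337) were separated by 61 bp within the long noncoding RNA gene LOC108352541. Mir181a2 (chr3:43025563-43025679) and Mir181b2 (chr3:43026666-43026753) were separated by 986 bp within the span of Nr6a1, a nuclear receptor gene. Both also overlapped the long noncoding RNA gene LOC120101539. Mir181c (chr19:40888291-40888396) and Mir181d (chr19:40888474-40888556) were separated by 77 bp, overlapped no annotated gene, and lay nearest to Nanos3, whose start or end is 975 bp from Mir181d. The arrays read mature miRNAs, so the 2 hairpins of miR-181a, and likewise those of miR-181b, cannot be told apart.

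Arrays detected 200 to 239 miRNAs each, 186 on every array, and the 233 detected on at least 4 arrays were tested. No spot was saturated. Unscaled signal was stronger on HHR arrays, where its 75th percentile averaged 469.6 ± 37.3, than on NHR arrays, where it averaged 378.4 ± 87.3 (SD, n = 8 per strain; exact permutation test, two-sided, p = 0.0191). The difference was 106.4 within slide 1 and 76.0 within slide 2 (two-sided exact permutation tests, p = 0.114 and 0.229). All levels below are therefore given after scaling each array to an equal 75th percentile over probes detected throughout, and the effect of that choice is given beside the result. Of the heart muscle markers, miR-1 averaged 12.50 in HHR and 12.60 in NHR and miR-133b 12.58 in HHR and 12.73 in NHR on the log2 scale, miR-133a, miR-499 and the dim miR-208b-3p were also detected on all arrays, and miR-208 was detected on none.

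All 4 members were detected on all 16 arrays. By signal, miR-181a ranked 52 to 55 among the 677 miRNAs on HHR arrays and 50 to 53 on NHR arrays. miR-181b ranked 77 to 80 in HHR and 74 to 77 in NHR. miR-181d ranked 95 to 100 in HHR and 94 to 101 in NHR, and miR-181c 108 to 113 in HHR and 107 to 114 in NHR. Since each miRNA has its own probes, the ranks are of array signal and say nothing of the numbers of molecules.

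In HHR hearts all 4 members of the family had lower levels than in NHR hearts, by 1.07 to 1.16-fold, under the reported scaling, while some of the other scalings described below turned the sign. miR-181d, encoded beside miR-181c, differed most, and miR-181b differed least. Lower levels were common in this comparison, since 45.5% of the 233 tested miRNAs were called lower in HHR and 9.01% higher. The family's count of 4 of 4 stands against that background. Because whole tissue was measured, fewer cells of a type and less RNA per cell cannot be told apart.

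miR-181d had log2 levels of 5.55, 5.56, 5.58 and 5.65 in HHR females and 5.54, 5.58, 5.60 and 5.60 in HHR males. NHR females had 5.84, 5.72, 5.89 and 5.89, and NHR males had 5.78, 5.73, 5.75 and 5.72. Every HHR animal lay below every NHR animal, the highest HHR level being 5.65 and the lowest NHR level 5.72. The mean was 5.58 ± 0.037 in HHR and 5.79 ± 0.073 in NHR (SD, n = 8 animals per strain), a log2 difference of -0.21 ± 0.028 (SE, limma with Benjamini-Hochberg adjustment, adjusted p = 5.29e-05) and 1.16-fold lower.

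miR-181c, the member described in mitochondria, had log2 levels of 5.20, 5.19, 5.26 and 5.21 in HHR females and 5.14, 5.20, 5.15 and 5.15 in HHR males. NHR females had 5.36, 5.27, 5.42 and 5.31, and NHR males had 5.37, 5.26, 5.35 and 5.30. All 8 HHR animals again lay below all 8 NHR animals, but the nearest animals of the 2 strains, HHR female 3 and NHR male 2, were level at 2 decimals. The mean was 5.19 ± 0.040 in HHR and 5.33 ± 0.054 in NHR (SD, n = 8 animals per strain), and the log2 difference was -0.14 ± 0.026 (SE, limma with Benjamini-Hochberg adjustment, adjusted p = 6.39e-04). Groups without overlap and with HHR lower made up 11.2% of the tested miRNAs, and 2 of the 4 members were among them.

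miR-181a, the brightest member, had log2 levels of 7.79, 7.79, 7.87 and 7.78 in HHR females and 7.76, 7.81, 7.81 and 7.85 in HHR males. NHR females had 7.96, 7.88, 7.93 and 8.04, and NHR males had 8.01, 7.85, 7.95 and 7.95. The strains overlapped, with 6 of 8 HHR animals below the lowest NHR animal. The mean was 7.81 ± 0.037 in HHR and 7.95 ± 0.062 in NHR (SD, n = 8 animals per strain), and the log2 difference was -0.14 ± 0.030 (SE, limma with Benjamini-Hochberg adjustment, adjusted p = 0.00174).

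miR-181b, which shares its hairpin clusters with miR-181a, had log2 levels of 6.30, 6.39, 6.40 and 6.47 in HHR females and 6.32, 6.39, 6.36 and 6.37 in HHR males. NHR females had 6.48, 6.39, 6.51 and 6.57, and NHR males had 6.52, 6.40, 6.47 and 6.42. HHR and NHR animals overlapped here most within the family, with 5 of 8 HHR animals below the lowest NHR animal. The mean was 6.38 ± 0.050 in HHR and 6.47 ± 0.063 in NHR (SD, n = 8 animals per strain), and the log2 difference was -0.095 ± 0.031 (SE, limma with Benjamini-Hochberg adjustment, adjusted p = 0.0218). With array brightness, which differed between the strains, as a covariate, the difference of miR-181b was -0.072 and no longer called (limma adjusted p = 0.190), and among the bright arrays alone neither miR-181b (-0.086) nor miR-181a (-0.11) was called (adjusted p = 0.135 and 0.0630). Over all 233 tested miRNAs, 59 were called lower with that covariate and 51 among the bright arrays, against 106 in the reported fit.

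**Figure D1:**
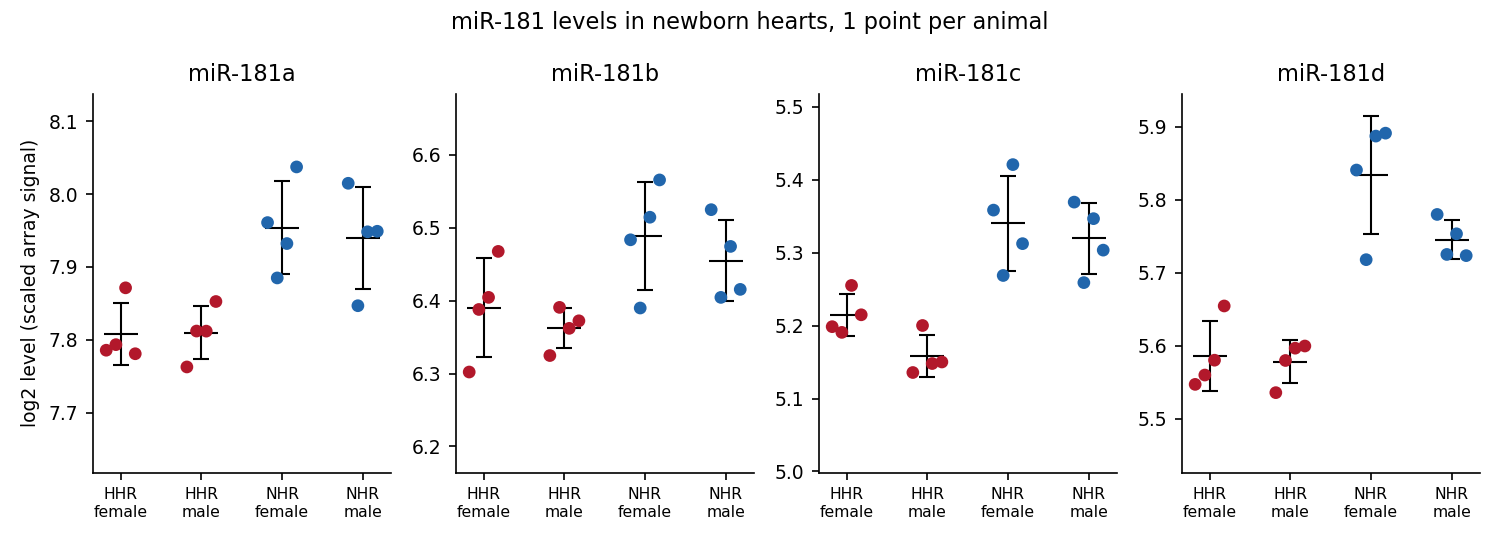
Log2 level (scaled array signal) of each member by strain and sex, with 1 point per animal and bars for the mean ± SD of 4 animals. For miR-181d and miR-181c all HHR points lie below all NHR points under the reported scaling, and for miR-181a and miR-181b the strains overlap.

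The residual SD of the 4 members within groups was 0.045 to 0.059 on the log2 scale, against a median of 0.12 over all tested miRNAs and 0.087 over those detected on all arrays. The median difference of all 233 tested miRNAs was -0.11, and that of the 4 members was -0.14. Relative to the median of all, miR-181b stood at 0.011, miR-181a at -0.032, miR-181c at -0.037 and miR-181d at -0.10. From the lowest difference upward, miR-181d ranked 67 of 233, miR-181c 89, miR-181a 91 and miR-181b 122.

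**Figure D2:**
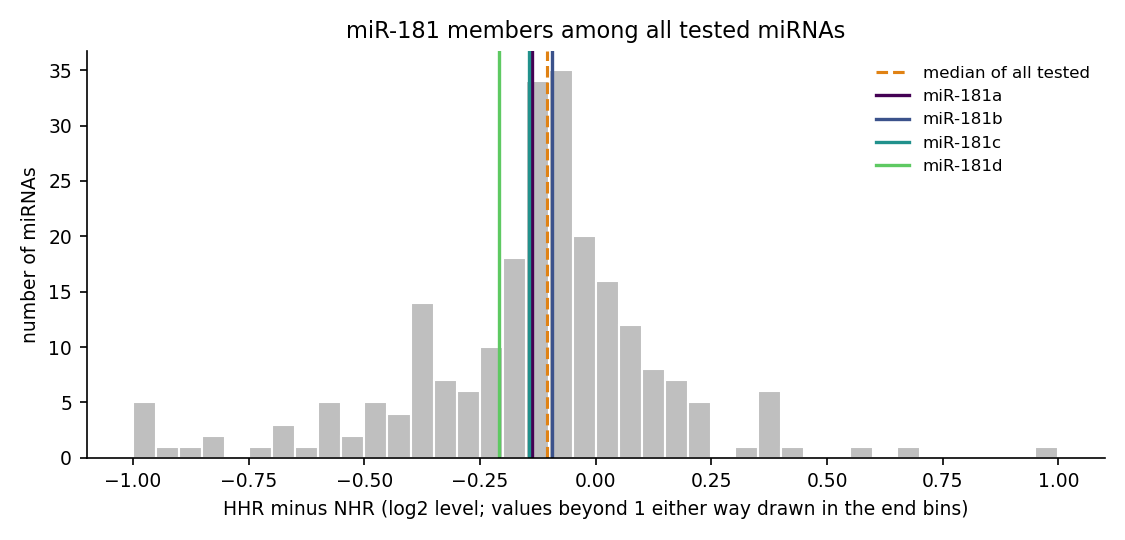
Histogram of the HHR minus NHR log2 difference of the 233 tested miRNAs under the reported scaling, with solid lines at the 4 members and a dashed line at the median of all, -0.11. miR-181b (-0.095) lies at the median, miR-181a and miR-181c (both -0.14) just below it, and miR-181d (-0.21) farther below; other scalings move the whole histogram and turn the sign of members.

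The sign of each member's difference depended on how the arrays were scaled. With the 75th percentile taken over all probes, miR-181a, miR-181b and miR-181c were called higher in HHR, by 0.14, 0.18 and 0.14 on the log2 scale (limma with Benjamini-Hochberg adjustment, adjusted p = 0.00870, 9.85e-04 and 0.0187), and miR-181d was at 0.072 (adjusted p = 0.157). Of all tested miRNAs, 57.5% were then called higher. Under that scaling the median of all tested miRNAs was 0.17. Quantile normalization kept all 4 negative, between -0.077 and -0.024, with a median of all of 0.022, and called 2 of them (miR-181a and miR-181c), beside 16.3% of all tested miRNAs called lower. Without scaling and with the spike-in controls all 4 were positive and none was called, beside 48 and 25 calls in either direction among the 233 tested miRNAs. Median centring gave 0.036, 0.079 and 0.031 for miR-181a, miR-181b and miR-181c and -0.034 for miR-181d. None of them was called, beside 87 of the 233 tested miRNAs.

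Of all calls, 83.5% were lower in HHR under the reported scaling, 40.0% with quantile normalization, 13.5% with the all-probe percentile, 20.8% without scaling, 31.0% with median centring and 40.0% with spike-in scaling.

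The place of the members among the other miRNAs also moved in part. Relative to the median of all tested miRNAs, miR-181d stood at -0.10 under the reported scaling, with the all-probe percentile and with median centring. It stood at -0.098, -0.098 and -0.087 with no scaling, spike-in scaling and quantile normalization. Apart from quantile normalization, the 6 scalings differ only by a factor for each array, which shifts a member and the median almost alike. Nearly equal places under them follow from that and are not separate checks. Of the 6, only quantile normalization could have moved a place by much. miR-181b stood between -0.046 and 0.015 under the 6 scalings. miR-181a and miR-181c stood at -0.032 and -0.037 under the reported scaling and at -0.098 and -0.095 with quantile normalization. In the authors' deposited table of log2 values, the 4 members differed by 0.14, 0.12, 0.071 and 0.032 in the order a to d. None of them was called, beside 15 of the 233 tested miRNAs, and the median of all was 0.065. Relative to that median they stood at 0.073, 0.052, 0.0056 and -0.034. With another background correction, normexp, the places in the same order were 0.067, 0.052, -0.0020 and -0.025. With the total gene signal of the scanner software they were -0.062, -0.019, -0.068 and -0.13.

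**Figure D3:**
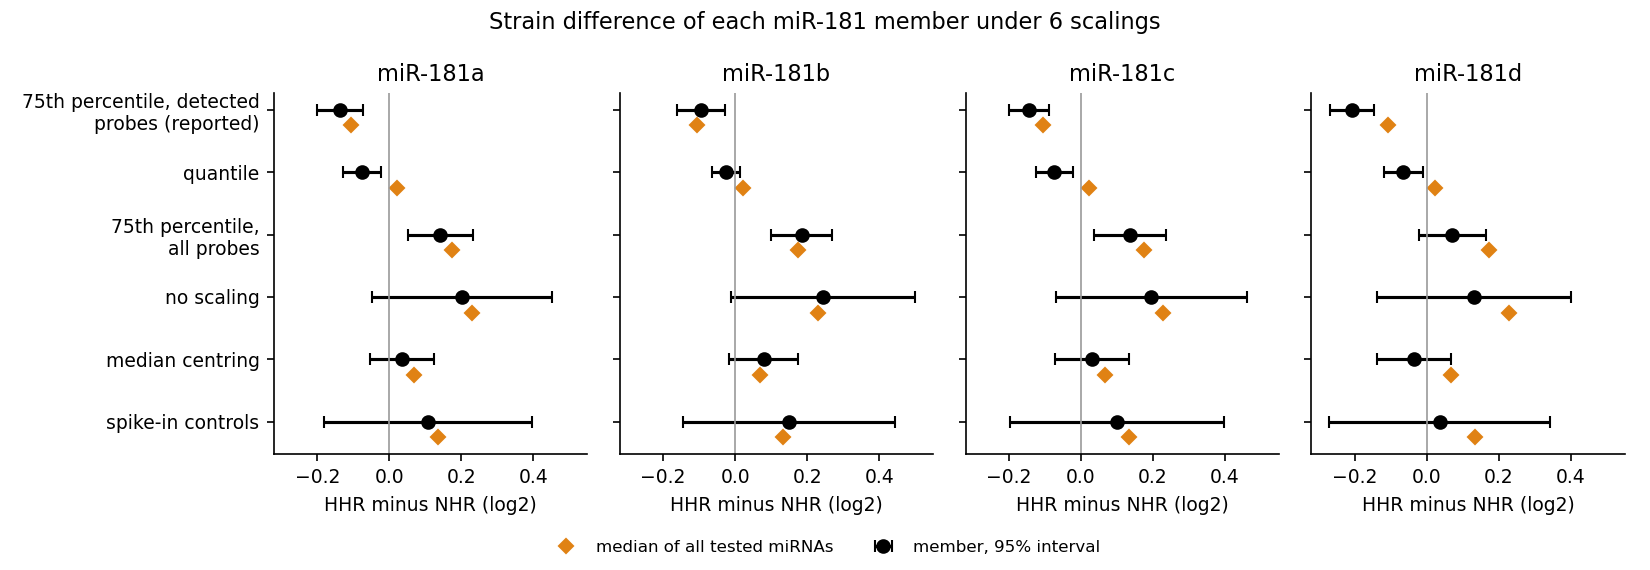
HHR minus NHR log2 difference of each member under 6 scalings, with black points and 95% intervals for the member and orange diamonds for the median of all 233 tested miRNAs. The reported scaling puts all 4 members and the median below 0. The all-probe percentile, no scaling and the spike-in controls put them above 0. miR-181d stays below the median under each of the 6. Apart from quantile normalization, however, these differ only by a factor for each array, which shifts a member and the median almost alike. They are therefore not separate checks of that place.

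Ratios of 2 members within an array do not depend on a factor that scales the array, so they ask whether the family kept its internal proportions between the strains. miR-181d was lower in HHR relative to each of the other 3 members, and most clearly relative to miR-181b, its nearest relative in sequence, while with quantile normalization its ratios to miR-181a and miR-181c turned sign (0.011 and 0.0084) and none of the 3 was called. Of the 6 pairs compared, 3 passed the threshold and all 3 contained miR-181d. These 3 share the same miR-181d values, and miR-181d already differed most of the members, so they are not 3 separate results. The absolute value of such a ratio depends on the probes, so only its change between strains is read.

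The log2 ratio of miR-181d over miR-181b was -0.76, -0.83, -0.82 and -0.81 in HHR females and -0.79, -0.81, -0.77 and -0.77 in HHR males. NHR females had -0.64, -0.67, -0.63 and -0.67, and NHR males had -0.74, -0.68, -0.72 and -0.69. All 8 HHR animals lay below all 8 NHR animals. Of single tested miRNAs, 11.2% were without overlap and lower in HHR, and 3% without overlap and higher. How often ratios of other miRNAs separate the strains was not tested, so the separation is not read as particular to this pair. The mean was -0.79 ± 0.028 in HHR and -0.68 ± 0.038 in NHR (SD, n = 8 animals per strain), a difference of -0.11 or 1.08-fold (two-sided exact permutation test over 12870 splits, p = 0.00016, the smallest these splits can give; Benjamini-Hochberg adjusted p = 9.32e-04 over the 6 pairs). The difference was -0.11 within slide 1 and -0.12 within slide 2 (two-sided exact permutation tests over 70 splits, p = 0.0286 each, the smallest they can give). Among the 8 HHR and 3 NHR arrays of similar brightness it was -0.13 (exact permutation test, p = 0.00606). It was -0.15 in females and -0.075 in males, and the difference between the sexes was not tested.

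Each miRNA had 2 probes, and the ratio of miR-181d over miR-181b could be formed from 4 combinations of them. The difference of HHR minus NHR was -0.13, -0.10, -0.13 and -0.10 in these combinations. In 2 of the 4, both with the brighter miR-181d probe, all HHR animals lay below all NHR animals, and in the other 2 combinations 5 and 2 of the 8 did. With quantile normalization, which does not keep ratios within an array, the difference was -0.041 and was not called (adjusted p = 0.258).

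miR-181d over miR-181a differed by -0.071, with means of -2.23 ± 0.047 in HHR and -2.16 ± 0.063 in NHR (SD, n = 8 per strain; exact permutation test, p = 0.0225, adjusted p = 0.0451). miR-181d over miR-181c, the pair from 1 locus, differed by -0.065, with means of 0.39 ± 0.048 in HHR and 0.46 ± 0.056 in NHR (n = 8 per strain; exact permutation test, p = 0.0204, adjusted p = 0.0451). With normexp background correction neither was called (-0.091 and -0.023, adjusted p = 0.0556 and 0.182, exact permutation tests). miR-181d over miR-181a differed by -0.10 in females and -0.038 in males, and miR-181d over miR-181c by -0.12 in females and -0.0065 in males, with the difference between the sexes not tested. Both calls depended on single animals. The call for miR-181d over miR-181a was lost without any 1 of 11 arrays (HHR females 2 and 3, HHR males 1 to 4, NHR females 1 to 4 and NHR male 2), at -0.072 to -0.055. That for miR-181d over miR-181c was lost without any 1 of 9 arrays (HHR females 2 and 3, HHR males 1 and 2, NHR females 1 to 4 and NHR male 2), at -0.067 to -0.048. Within slides 1 and 2, miR-181d over miR-181a differed by -0.072 and -0.069 (exact permutation tests, p = 0.114 and 0.257) and miR-181d over miR-181c by -0.078 and -0.052 (p = 0.0286 and 0.486, exact permutation tests).

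The other 3 pairs did not pass. miR-181b over miR-181a, the pair shared by 2 loci, averaged -1.43 ± 0.055 in HHR and -1.48 ± 0.035 in NHR, a difference of 0.043 (SD, n = 8 animals per strain; exact permutation test, p = 0.0741, adjusted p = 0.0890). miR-181c over miR-181b averaged -1.19 ± 0.046 in HHR and -1.14 ± 0.049 in NHR, a difference of -0.048 (exact permutation test, p = 0.0632, adjusted p = 0.0890). miR-181c over miR-181a, which differ by 1 deleted base, averaged -2.62 ± 0.043 in HHR and -2.62 ± 0.061 in NHR, a difference of -0.0054 (exact permutation test, p = 0.843). A p above the threshold does not show that these proportions were equal.

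**Figure D4:**
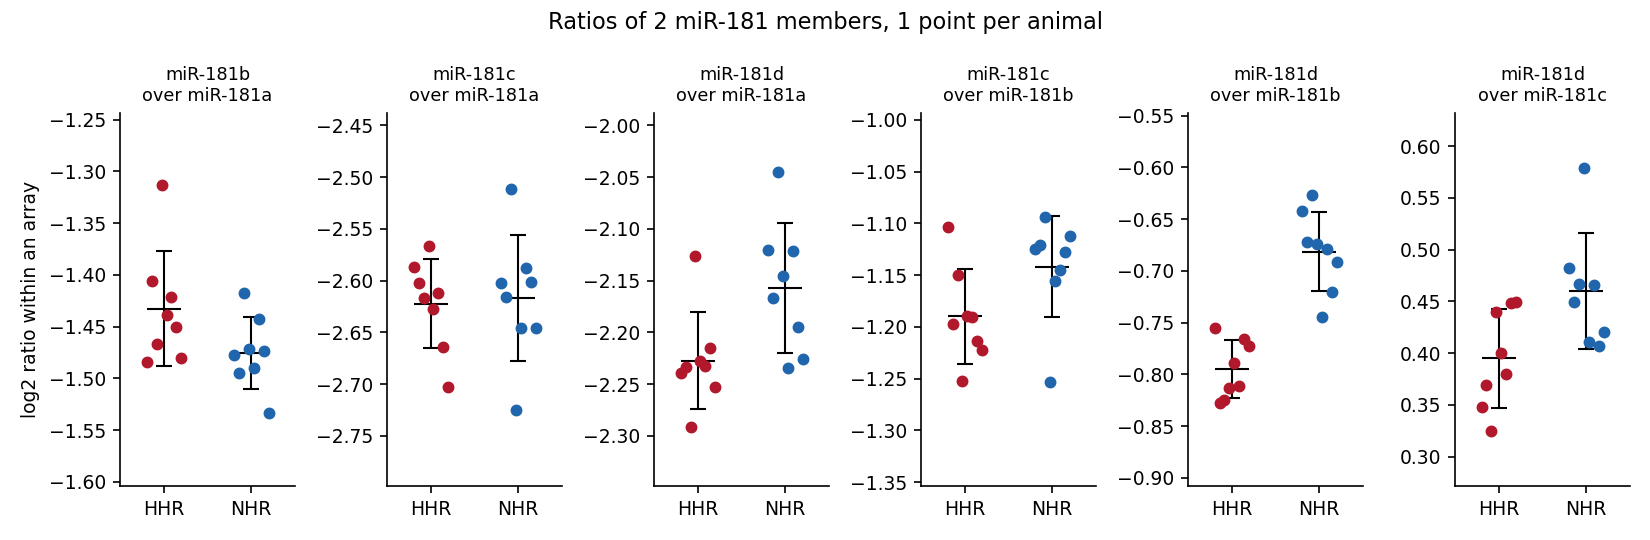
Log2 ratio within an array for the 6 pairs of members, with 1 point per animal and bars for the mean ± SD of 8 animals; each panel spans the same height. HHR and NHR points separate for miR-181d over miR-181b and overlap in the other 5 pairs.

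Single probes gave the same direction for each member under the reported scaling. Both miR-181d probes differed by -0.21, with all 8 HHR animals below the lowest NHR animal on each. The miR-181a probes differed by -0.13 and -0.14 and the miR-181b probes by -0.076 and -0.10. The miR-181c probes disagreed in size, at -0.17 with 8 of 8 HHR animals below the lowest NHR animal and at -0.090 with 2 of 8. All 8 of these probes were well above background on all 16 arrays.

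Females and males were compared next. In females, 3 members were called lower in HHR under the reported scaling, miR-181d at -0.25 ± 0.040, miR-181a at -0.15 ± 0.042 and miR-181c at -0.13 ± 0.037 (log2 difference, SE, 4 animals against 4, limma with Benjamini-Hochberg adjustment, adjusted p = 3.19e-04, 0.0149 and 0.0162). miR-181b was at -0.098 ± 0.045 (adjusted p = 0.0867). Among all tested miRNAs 38.6% were called lower and 6.44% higher in HHR females. With the percentile over all probes the sign turned, and miR-181a, miR-181b and miR-181c were called higher in HHR females (0.17, 0.22 and 0.19). Without NHR female 4 the call for miR-181a was lost (-0.12), and without HHR female 4 or NHR female 2 miR-181b passed (-0.13 to -0.12).

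In males the same 3 members were called, miR-181d at -0.17 ± 0.040, miR-181c at -0.16 ± 0.037 and miR-181a at -0.13 ± 0.042 (log2 difference, SE, 4 animals against 4, limma with Benjamini-Hochberg adjustment, adjusted p = 0.00917, 0.00736 and 0.0428). miR-181b was at -0.092 ± 0.045 (adjusted p = 0.153), and of all tested miRNAs 16.7% were called lower and 3.86% higher in HHR males. With the percentile over all probes the sign turned in males too, at 0.11, 0.15, 0.080 and 0.073 in the order a to d, with 0 members called. With normexp background correction 0 members were called in males (limma adjusted p = 0.221 to 0.297). The call for miR-181a in males was lost without any 1 of 11 arrays (HHR females 1 and 2, HHR males 1 to 4, NHR females 1 and 3 and NHR males 1, 3 and 4), at -0.14 to -0.10. With replicate number as a block (limma adjusted p = 0.0521) and with brightness as a covariate (adjusted p = 0.119) miR-181a was not called in males, and with that covariate neither miR-181a nor miR-181c was called in females (adjusted p = 0.123 and 0.0675). Both sexes' calls share the scaling and one estimate of the spread. Shares of all tested miRNAs within a sex are given for the reported fit only. Changes of calls under the alternatives are therefore not read as particular to the members.

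No member passed the test between males and females. Male minus female was -0.0060 for miR-181a, -0.031 for miR-181b, -0.038 for miR-181c and -0.048 for miR-181d on the log2 scale, with 95% intervals that together span -0.11 to 0.058. limma with Benjamini-Hochberg adjustment called 0 of 233 miRNAs for sex (0%) and 23 had an unadjusted p under 0.05 (9.87%), no member among them. The strain difference in males minus that in females was 0.081 for miR-181d (95% interval -0.040 to 0.20), and between -0.036 and 0.016 for the other three. limma called 0 of 233 for this interaction (0%) and 9 had an unadjusted p under 0.05 (3.86%), again with no member among them.

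The opposite arms of the hairpins were mostly below detection. Of 6 opposite arms with probes, only miR-181a-1*, from the chromosome 13 locus, was detected, and the arms of Mir181a2, both miR-181b hairpins, Mir181c and Mir181d were detected on 0 of 16 arrays. The sequence of miR-181a-1* has a seed of its own (capitals, bases 2 to 8), unlike that of the main arms.
miR-181a-1-3p: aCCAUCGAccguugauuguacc

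miR-181a-1* had log2 levels of 3.57, 3.48, 3.57 and 3.74 in HHR females and 3.47, 3.74, 3.53 and 3.32 in HHR males. NHR females had 3.68, 3.67, 3.66 and 3.51, and NHR males had 3.67, 3.67, 3.25 and 3.32. The strains overlapped throughout, and the difference was -0.0024 ± 0.075 (SE, 95% interval -0.16 to 0.16, limma with Benjamini-Hochberg adjustment, adjusted p = 0.977). The interval includes the difference of miR-181a, so the arms were not shown to differ in response. One of its 2 probes was well above background on 0 arrays and the other on 10.

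The members also varied among animals of the same strain and sex. As a description over the 16 animals, with the group mean removed, miR-181b and miR-181d deviated together (Pearson r = 0.888, Spearman rho = 0.856, and r = 0.854 without the 2 animals farthest from the median). Within strains r was 0.848 in HHR and 0.915 in NHR. The pair from 1 locus, miR-181c and miR-181d, had r = 0.586 (0.273 without 2 animals), and miR-181a with miR-181b had r = 0.652. The remaining 3 pairs lay between 0.484 and 0.578. Levels on 1 array share its scaling, RNA amount and background, and any binding of miR-181d to miR-181b probes was not tested.

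**Figure D5:**
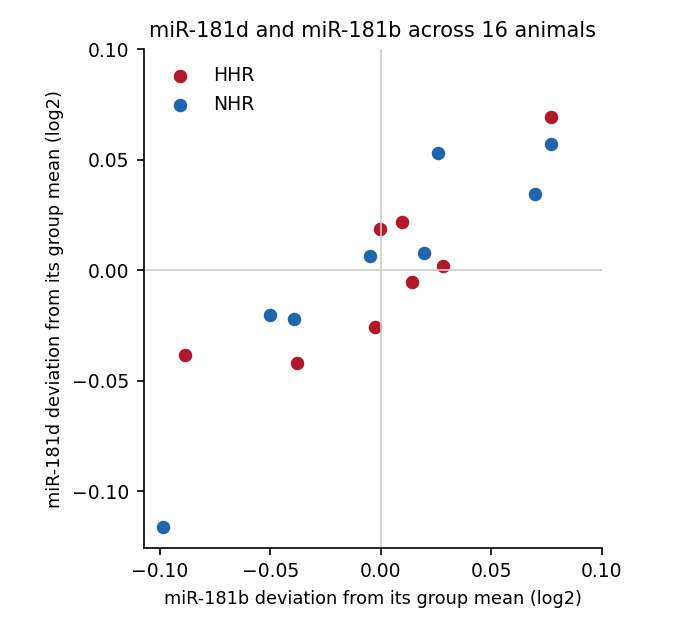
Deviation of miR-181d (vertical) against that of miR-181b (horizontal) from their group means, log2 scale, 1 point per animal, HHR and NHR in separate colours. The points of both strains run along 1 diagonal (Pearson r = 0.888 over 16 animals, 0.848 in HHR and 0.915 in NHR).

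Among 182 other miRNAs detected on all arrays, the 3 whose deviations were most like those of a member were found by the same Pearson measure over 16 animals. For miR-181d they were miR-361 (r = 0.842), miR-532-5p (0.801) and miR-301b (0.795), all below miR-181b. For miR-181b they were miR-361 (0.893), miR-324-5p (0.856) and let-7i (0.797). For miR-181a they were miR-1249 (0.821), miR-27a (0.749) and miR-22 (0.721), and for miR-181c they were miR-130a (0.774), miR-27b (0.718) and miR-103 (0.694). The median r of a member with all of them was 0.241 to 0.342. Ranked together with these miRNAs, the other members stood at 11 to 39 for miR-181a and 2 to 39 for miR-181b. They stood at 11 to 27 for miR-181c and 1 to 47 for miR-181d, so many unrelated miRNAs were as alike as most of the family.

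Other miRNAs that have been linked to mitochondria in heart or other cells were taken as a list of 18, all on the array and 17 of them tested. Of the 17, 10 were called lower in HHR and 2 higher under the reported scaling, beside 45.5% and 9.01% of all tested miRNAs, and their median difference was -0.12 on the log2 scale, beside -0.11 for all tested miRNAs. The 2 with the smallest p among the lower ones were miR-499, a miRNA hosted by a myosin gene (-0.28 ± 0.027, SE, limma adjusted p = 1.80e-06), and miR-195, of the miR-15 family (-0.34 ± 0.042, adjusted p = 2.30e-05). With the percentile over all probes, 0 of the 17 were called lower and 12 higher, around a median of 0.16, beside 57.5% of all tested miRNAs called higher. Over the 6 scalings miR-499 ranged from -0.28 to 0.060 and miR-195 from -0.34 to -0.0031. The higher ones were miR-378 (0.41 ± 0.034, adjusted p = 3.26e-07) and miR-338 (0.57 ± 0.099, adjusted p = 4.81e-04, limma). Over the 6 scalings miR-378 ranged from 0.41 to 0.75 and miR-338 from 0.57 to 0.90. The reported scaling gave every tested miRNA of the list its lowest difference. A positive sign under the other scalings is therefore not a separate check. miR-378 lies within Ppargc1b, the gene of a coactivator of genes for mitochondrial function. miR-338 has been described as acting on a cytochrome c oxidase transcript in rat neurons.

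Since miR-181 is abundant in lymphocytes and present in endothelium, markers of other cell types are given beside its difference. The counts stand beside 45.5% of all tested miRNAs called lower. Of 6 leukocyte markers, 5 were on the array, 4 were tested and 3 were called lower in HHR under the reported scaling, namely miR-150 (-0.53), miR-223 (-0.47) and miR-146a (-0.30), with miR-142-3p at -0.11 and miR-142-5p detected on none. Their summed scaled signal was 138.5 to 156.5 on HHR arrays and 167.6 to 211.6 on NHR arrays, without overlap. Both endothelial markers, miR-126 and miR-126*, were called lower, with sums of 982.2 to 1096.4 in HHR and 1178.5 to 1294.9 in NHR. Both smooth muscle markers, miR-143 and miR-145, were called lower, by -0.12 and -0.13. Their sums did not overlap either, with 1288.1 to 1360.6 in HHR and 1417.6 to 1504.3 in NHR. Of the 5 heart muscle markers tested, 3 were called lower (miR-133b, miR-208b-3p and miR-499), and the heart muscle sums overlapped. The 2 erythroid markers tested were not called and their sums overlapped, with 202.5 to 313.1 in HHR and 212.7 to 337.9 in NHR. All these sums were formed under the reported scaling only. They add signal before log2 is taken, so the brightest marker weighs most. In HHR, miR-126 averaged 10.01 and miR-126* 5.06 on the log2 scale, and miR-143 averaged 10.34 and miR-145 4.88. The endothelial and smooth muscle sums are thus mostly miR-126 and miR-143. Among single tested miRNAs, 11.2% were without overlap and lower in HHR. Of the neural markers, miR-9 and miR-124 were detected on none, miR-128 was at -0.0075, and the liver marker miR-122 was detected on none. Over the 6 scalings miR-150 ranged from -0.53 to -0.19 and miR-223 from -0.47 to -0.13, whereas miR-146a, miR-126, miR-126*, miR-143, miR-145, miR-133b, miR-208b-3p and miR-499 turned positive under at least 1 of them. The part of these cell types in the miR-181 differences was not tested.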

How the data were processed

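Total RNA of 16 hearts was labelled with Cy3 and hybridised to Agilent rat miRNA arrays, 4 animals in each of 4 groups taken from the labels. The authors deposited scanner output in which, per the file headers, each spot's intensity was read and background-subtracted by Agilent Feature Extraction 10.7.3.1 without scaling between arrays; the headers name build rn4. The detection flags, coded as other values (0 or 1), are also as deposited. The authors deposited a table of log2 values too. The submitters' processing notes name limma. How that table was background-corrected, scaled and centred is not given in the sources used here, so it served as an alternative.

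From the processed intensities, outlier and control spots were left out, spots averaged per probe, arrays scaled to an equal 75th percentile over 258 probes that were well above background throughout, probes averaged per miRNA, values raised to a floor of 1.92 and log2 taken. Testing took in the 233 miRNAs that the scanner software detected on 4 or more arrays. limma 3.58.1 in R 4.3.3 fitted 4 group means to 16 arrays, and p values were adjusted by Benjamini-Hochberg over the 233 miRNAs with a threshold of 0.05. Ratios of members were tested by exact permutation over arrays, adjusted over 6 pairs. The fit was tested on simulated data with independent noise and no difference in array brightness, so that test does not bear on the scaling.

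The rule for named miRNAs took the members, the other arms of their hairpins, the 3 miRNAs most like each member, and from the mitochondria list the 2 smallest p each way. Members, lists and tests were chosen with earlier results of these data known. Alternatives covered the signal, the background, the scaling, the floor, the filter, the moderation, the slide, the replicate number and leaving out each array. Sequences and loci are from RefSeq GRCr8 tables. The number of arrays limits the precision. Same-numbered animals of different groups share a slide (numbers 1 and 2 on slide 1, 3 and 4 on slide 2). Their deviations correlated at 0.1 or more in 13 of 24 pairs and less in 11. These values cannot tell a pairing from the shared slide. The numbers were not taken as pairs, and a fit with replicate number as a block is given below.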

Additional observations from a re-analysis of the deposited data

Results flagged for a closer look

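For miR-181a in HHR females, the level of HHR female 3, 7.87, stood apart from the other 3 animals at 7.78 to 7.79, with a gap of 0.862 of the group's range. For miR-181a-1*, the level of NHR female 4, 3.51, stood apart from the other 3 NHR females at 3.66 to 3.68, with a gap of 0.904 of the range. Both gaps exceed Dixon's critical value for groups of 4. They were 2 of 44 groups checked, and chance gives about 1 in 20. No cause was tested.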

How the results depend on the processing

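Of 22 alternatives, those of the scaling changed the most. The strain differences of miR-181a, miR-181b, miR-181c and miR-181d, in that order, were 0.14, 0.18, 0.14 and 0.072 with the percentile over all probes (0 members called lower and 3 higher), 0.20, 0.24, 0.20 and 0.13 without scaling, 0.036, 0.079, 0.031 and -0.034 with median centring, 0.11, 0.15, 0.10 and 0.036 with spike-in scaling, and 0.14, 0.12, 0.071 and 0.032 in the authors' deposited table (0 called under each of the last 4). The total gene signal gave -0.076, -0.033 and -0.081 for miR-181a, miR-181b and miR-181c, leaving 1 call, and quantile normalization gave -0.024 for miR-181b and -0.065 for miR-181d, leaving 2. Slide 1 alone gave -0.14, -0.099 and -0.13 for miR-181a, miR-181b and miR-181c (1 call left) and slide 2 alone -0.14 and -0.091 for miR-181a and miR-181b (2 left). The bright arrays, chosen after seeing the data, gave -0.11 and -0.086 for the same pair (2 left), and brightness as a covariate gave -0.072 for miR-181b, whose call was lost (adjusted p = 0.190). Lower calls also became fewer over all 233 tested miRNAs, from 106 to 36 with the total gene signal and 38 with quantile normalization. They numbered 21 with the percentile over all probes, 10 without scaling, 27 with median centring, 10 with spike-in scaling and 2 in the authors' deposited table. They fell to 30 and 35 on slides 1 and 2 alone, 51 on the bright arrays and 59 with the brightness covariate. The split of calls over all miRNAs was 51.4% lower with the total gene signal, 98.8% with normexp and 13.3% in the authors' deposited table. Without 1 array at a time the strain differences kept their calls, at -0.15 to -0.12, -0.11 to -0.080, -0.16 to -0.13 and -0.23 to -0.20.

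In females 3 members were called lower. With the percentile over all probes 3 were called higher (miR-181a, miR-181b and miR-181c, at 0.17, 0.22 and 0.19), and normexp left 2 lower (miR-181a and miR-181d). The number called was 1 with the total gene signal, slide 2 alone or the brightness covariate, 0 with quantile normalization, no scaling, median centring, spike-in scaling, the authors' deposited table or slide 1 alone, and 2 to 4 without 1 array. In males 3 were called, against 1 with quantile normalization, 0 with the total gene signal, normexp, the all-probe percentile, no scaling, median centring, spike-in scaling, the authors' deposited table or either slide alone, and 2 to 3 without 1 array. Shares of all tested miRNAs called within a sex are given for the reported fit only. These counts therefore cannot show whether the members lost calls more than other miRNAs did. For sex and the interaction no member was called under the 20 alternatives run.

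Of the 6 ratios, 3 were called, against 1 with normexp or the bright arrays, 0 with quantile normalization or either slide alone, and 1 to 5 without 1 array. Within a slide, 4 animals against 4 give p of at least 0.0286 before adjustment (exact permutation test), so fewer than 4 pairs cannot pass. Turned signs were -0.015 (normexp) and -0.021 (authors' deposited table) for miR-181b over miR-181a, 0.0030 (quantile), 0.0041 (mean of log2 probe values) and 0.0057 (slide 1) for miR-181c over miR-181a, which ranged from -0.021 to 0.0097 without 1 array, and 0.011 and 0.0084 (quantile) for miR-181d over miR-181a and over miR-181c. miR-181b over miR-181a passed without HHR female 1 (0.050), and miR-181c over miR-181b without HHR female 1 or NHR female 4 (-0.064 to -0.061). The causes of these changes were not tested.

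Replicate number as a block left the 4 strain differences and their calls in place (limma adjusted p = 0.0035, 0.0299, 0.0014 and 1.33e-04), and over all miRNAs 104 were called lower and 20 higher, against 106 and 21. Of 24 same-numbered pairs the correlation of deviations ran from -0.42 to 0.59 and 11 lay below 0.1. Differently numbered arrays were not compared, and same-numbered arrays also share a slide, so these values cannot show whether the numbers mark pairs. They were not taken as pairs in the reported fit. In males the block left 2 members called instead of 3, without miR-181a (-0.13, limma adjusted p = 0.0521), and in females 3.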
